A study of Mus musculus with 6 samples.

Results

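The zinc and iron handling genes described here were the 37 of 18305 counted genes whose mouse symbol placed them in the Slc30a family (10 genes) or the Slc39a family (14 genes), or that were listed by symbol (13 genes). The listed genes were Mt1, Mt2, Slc11a1, Slc11a2, Slc40a1, Tfrc, Trf, Fth1, Ftl1, Lcn2, Steap3, Steap4 and Cp. The rule itself used symbols and no measured value, so each gene could be compared between the groups. The members were, however, chosen with earlier results of these data known, so their shares beside all genes are descriptions. RNA sequencing covered 6 libraries of cultured cells from KM mice, 2 in each of 3 groups. CiLC were mouse embryonic fibroblasts of passages 3 to 5, given unnamed small molecule compounds 24 h after they were seeded, in a study that asked whether such cells come to resemble Leydig cells. LC were Leydig cells, the steroid-producing cells between the testis tubules, prepared from testis and used at passages 0 to 1. MEF were the embryonic fibroblasts without induction, from embryos of 12.5 or 13.5 days post coitum, also at passages 3 to 5. Nothing in the labels states that the libraries of 1 group were separate cultures or animals. A p-value here therefore reflects how far these libraries scatter, which may be a technical spread. Passage, tissue of origin and age of the donor differ between LC and the other groups and cannot be told apart from cell type.

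Zinc and iron are both essential and toxic when free, so cells hold them within narrow limits. Zinc enters the cytosol through Slc39a (ZIP) transporters, leaves it for vesicles or the outside through Slc30a (ZnT) transporters, and is buffered by cysteine-rich metallothioneins. Iron arrives bound to transferrin, is taken up by the transferrin receptor, reduced by Steap enzymes and passed on by divalent metal transporters. It is then stored in ferritin or exported by ferroportin with the help of a copper oxidase. In the testis, steroid synthesis depends on haem enzymes and iron-sulphur proteins, and Sertoli cells, the nurse cells of the tubules, are a known source of transferrin.

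Each library held 18.4 to 18.9 M estimated reads and 16441 to 16631 genes above 0. Levels are CPM, the count of a gene per M reads of the scaled library, and they do not correct for gene length, so they are compared between libraries and not between genes. Leydig markers summed to 148 and 144 CPM in CiLC, 1109 and 1081 CPM in LC and 7.55 and 9.4 CPM in MEF, over 8 genes, with Lhcgr at 0 in CiLC and Hsd3b6 at 0 in MEF. Sertoli markers, 10 genes, summed to 250 and 253 CPM in CiLC, 2326 and 2329 CPM in LC and 42.8 and 45.9 CPM in MEF. Clu led this sum in LC (1942 CPM on average) and MEF (17.2 CPM). In CiLC Inhbb led it, at 135 CPM beside 79.7 CPM for Clu. Fshr and Gata1 were at 0 in CiLC, Fshr, Gata1 and Rhox5 at 0 in MEF, and none at 0 in LC. Macrophage markers, 18 genes with none at 0 in any group, summed to 14260 and 14482 CPM in CiLC, 6272 and 5883 CPM in LC and 11527 and 11792 CPM in MEF. Lyz2 led this sum, at an average of 7571 CPM in CiLC, 2554 CPM in LC and 2660 CPM in MEF. In CiLC against MEF, 9 of the 18 were lower and 4 higher, beside 25.5% and 26.1% of all genes. The 8 fibroblast markers, mostly collagens and Fn1, summed to between 32424 and 45044 CPM in every library. In LC against MEF, 5 of the 8 were lower and 3 higher, beside 35% and 35.7% of all genes. Of the lower ones, Thy1 averaged 5.73 CPM in LC and 395 CPM in MEF, and Lum 5.72 CPM in LC and 91.3 CPM in MEF. The 3 higher were Pdgfra (1787 CPM in LC and 303 CPM in MEF), Dcn (1124 and 455 CPM) and Col3a1 (8503 and 4584 CPM). Smooth muscle and peritubular markers summed to 143 and 145 CPM in CiLC, 964 and 950 CPM in LC and 1699 and 1610 CPM in MEF. Endothelial markers reached at most 82.6 CPM, and erythroid, germ cell, and adipocyte and hepatocyte markers at most 12.2, 4.17 and 10.5 CPM. In bulk libraries, fewer cells of a type and less RNA per cell cannot be told apart. The part of these other cell types in any difference between the groups was not tested.

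**Figure D1:**
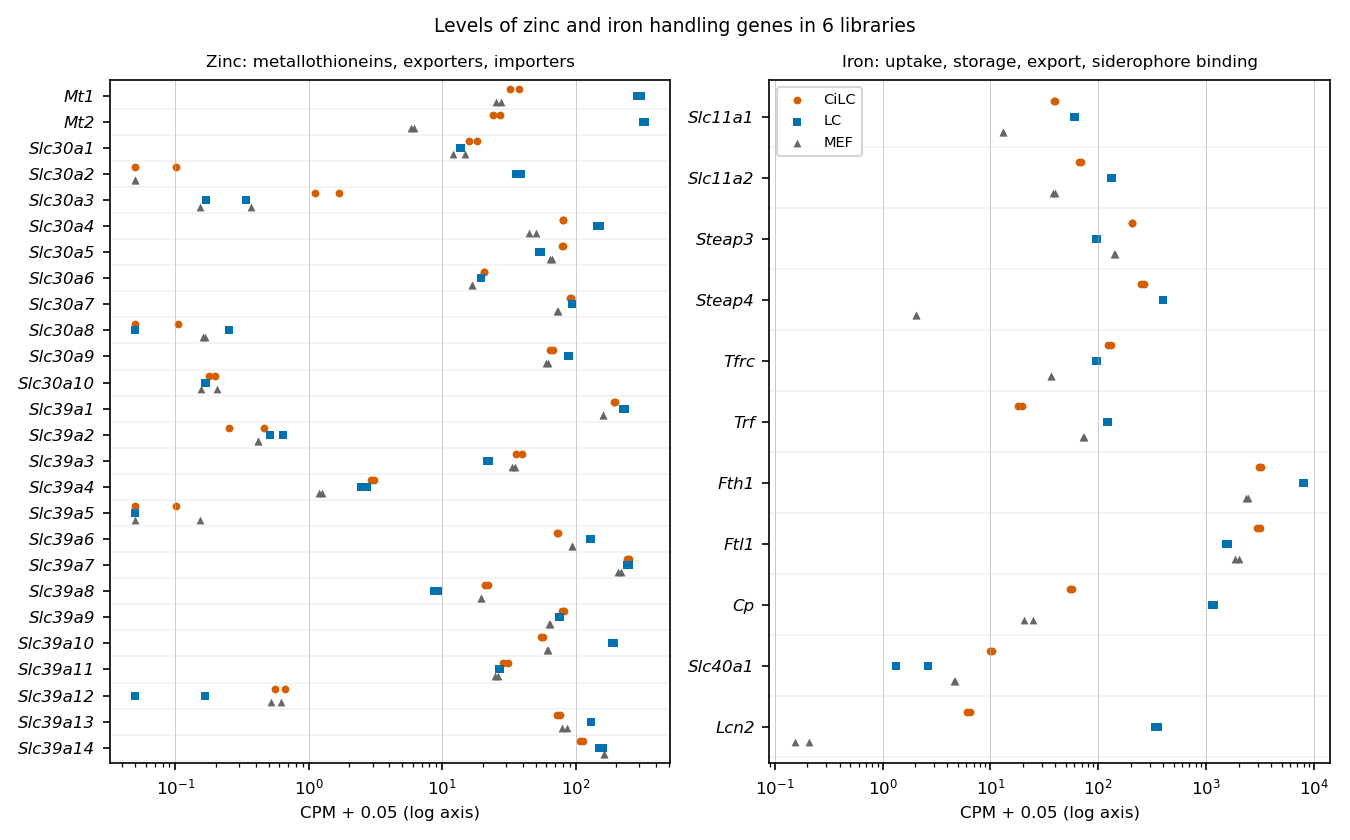
CPM plus 0.05 of every zinc and iron handling gene, on a log axis, in each of the 6 libraries (2 points per group). The iron storage genes Fth1 and Ftl1 sat at 1538 CPM or more in all libraries, while Slc30a8, Slc30a10, Slc39a2 and Slc39a5 sat near the low end in every group.

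Of the 37 genes, 33 passed the filter on low counts. Slc30a8, Slc30a10, Slc39a2 and Slc39a5 did not, with at most 10 reads in any library, and no fold is given for them. Slc30a2 passed through LC alone, Slc30a3 through CiLC alone and Lcn2 through CiLC and LC, so these had to differ from the group or groups where they were low. Slc39a12 passed with at least 10 reads in both libraries of CiLC alone and 9 and 11 reads in MEF.

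In CiLC against MEF, 23 of the 33 tested genes were called higher, 5 lower and 5 were not called (edgeR quasi-likelihood test, adjusted p below 0.05). Of all 14581 genes tested, 26.1% were called higher and 25.5% lower. At least 2-fold, 9 were higher and 1 lower, where 6.23% and 5.98% of all genes were. The median log2 fold change was 0.34, against 0.01 for all genes. In LC against MEF, 22 were higher, 7 lower and 4 not called, beside 35.7% and 35% of all genes. At least 2-fold, 13 were higher and 3 lower, beside 14.3% and 12.9%, with a median of 0.52 against -0.01. In CiLC against LC, 10 were higher, 17 lower and 6 not called, beside 35% and 35.6%. At least 2-fold, 5 were higher and 8 lower, beside 11.4% and 14%, with a median of -0.23 against 0.00. The counts hold genes whose difference the filter fixed: Slc30a3 and Lcn2 as higher in CiLC against MEF, Slc30a2 and Lcn2 as higher in LC against MEF, and Slc30a3 and Slc39a12 as higher and Slc30a2 as lower in CiLC against LC. Slc39a12 is also counted as lower in LC against MEF, and nothing is read from that call. The 3 comparisons share libraries, so their values stand side by side and are not independent of each other.

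**Figure D2:**
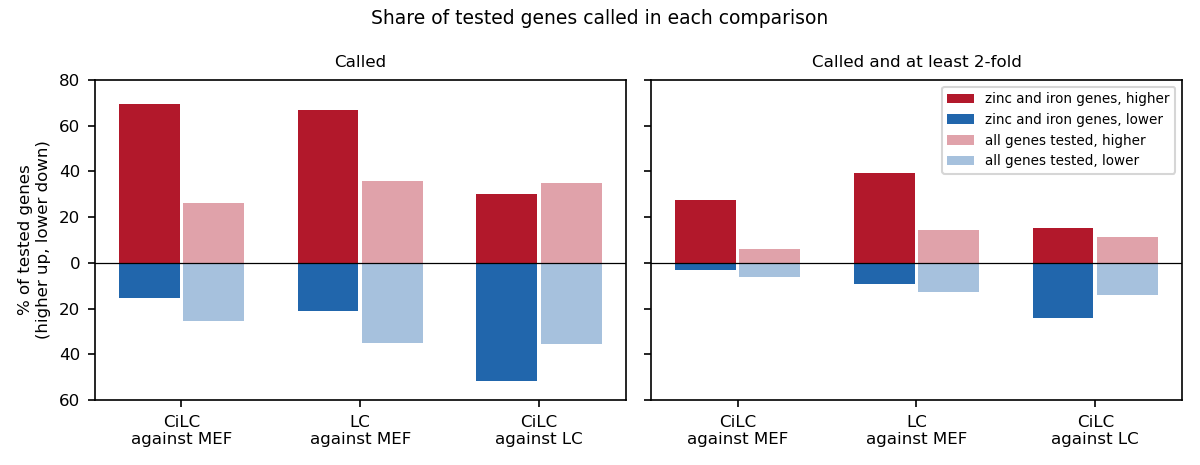
Share (%) of tested genes called higher (upward bars) and lower (downward bars) for the 33 tested zinc and iron handling genes and for all 14581 genes tested, at the adjusted p threshold of 0.05 alone (left) and with at least a 2-fold change (right). In CiLC against MEF, 69.7% of the zinc and iron handling genes were higher, where 26.1% of all genes were.

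The spread between libraries was small, with a common biological coefficient of variation of 3.16%, so small folds were called. With a coefficient of 0.4 assumed for every gene, the calls left in CiLC against MEF were Steap4 and Mt2 as higher and Trf as lower, beside Lcn2 and Slc30a3. For LC against MEF they were Cp, Fth1, Slc11a1, Slc11a2, Steap4, Mt1, Mt2, Slc30a4 and Slc39a10 as higher, beside Lcn2, Slc30a2 and, as lower, Slc39a12. In CiLC against LC they were Slc40a1 as higher, with Cp, Trf, Mt1, Mt2, Lcn2 and Slc39a10 as lower, beside Slc30a3, Slc39a12 and Slc30a2. Nothing is read from the calls of Slc30a2, Slc30a3 and Slc39a12, or of Lcn2 against MEF, since these genes passed the filter only through groups where they were high. All other calls of the 33 genes ended in that setting. With a coefficient of 0.1, the calls that ended in CiLC against MEF were Slc30a1, Slc30a5, Slc30a6, Slc30a7, Slc39a1, Slc39a6, Slc39a7, Slc39a9, Slc39a10, Slc39a11 and Slc39a13 (adjusted p from 0.0509 to 0.532). Those that ended in LC against MEF were Ftl1, Slc30a5, Slc30a6, Slc39a7 and Slc39a9 (from 0.0692 to 0.255), and in CiLC against LC Slc30a1 and Slc39a1 (0.118 and 0.178).

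The 2 metallothioneins, small proteins that bind zinc and copper through cysteines, were higher in LC than in either other group. Mt1 (NCBI gene 17748) had 31.9 and 37.8 CPM in CiLC, 309 and 287 CPM in LC and 27.4 and 25.3 CPM in MEF. Mt2 (17750) had 24.1 and 27.1 CPM in CiLC, 318 and 329 CPM in LC and 6.13 and 5.73 CPM in MEF. No groups overlapped for either gene, and LC stood far above both. Mt1 rose in LC against MEF, 11.3-fold (log2 fold change 3.50 ± 0.072 SE, edgeR adjusted p = 2.15e-22) and Mt2 54.5-fold (5.77 ± 0.10 SE, edgeR adjusted p = 1.49e-25). In CiLC against MEF, Mt2 rose 4.31-fold (2.11 ± 0.11 SE, edgeR adjusted p = 2.49e-14). Mt1 rose by less, 1.32-fold (0.40 ± 0.082 SE, edgeR adjusted p = 0.000264). In CiLC against LC, Mt1 was 8.55-fold lower (-3.10 ± 0.067 SE, edgeR adjusted p = 1.15e-21) and Mt2 12.6-fold lower (-3.66 ± 0.062 SE, edgeR adjusted p = 8.78e-24). Mt2 therefore gained on Mt1 in both comparisons with MEF: the ratio of Mt2 reads to Mt1 reads within a library was 0.756 and 0.716 in CiLC, 1.03 and 1.15 in LC, and 0.224 and 0.226 in MEF.

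Metallothionein promoters are textbook targets of Mtf1, a zinc-sensing transcription factor that binds metal response elements. Mtf1 itself averaged 36.0 ± 0.928 CPM in CiLC, 36.8 ± 0.746 CPM in LC and 33.3 ± 0.822 CPM in MEF (SD, n = 2 each) and was not called in any comparison (edgeR adjusted p = 0.153 for CiLC against MEF, 0.053 for LC against MEF and 0.662 for CiLC against LC). The promoters of Mt1 and Mt2 are shown because these genes moved together. They run from 250 bases before to 30 after the start of transcription, from RefSeq on GRCm38.p6, plus strand, 5′ to 3′: chr8:94178839-94179118 for Mt1 and chr8:94172368-94172647 for Mt2. Capitals mark matches to the core TGCACNC or TGCGCNC on either strand.
Mt1: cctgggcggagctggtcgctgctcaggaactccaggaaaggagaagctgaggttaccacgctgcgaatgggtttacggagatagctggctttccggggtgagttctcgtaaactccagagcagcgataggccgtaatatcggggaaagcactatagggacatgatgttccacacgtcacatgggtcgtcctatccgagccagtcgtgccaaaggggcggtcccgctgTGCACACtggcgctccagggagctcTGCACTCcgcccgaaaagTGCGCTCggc
Mt2: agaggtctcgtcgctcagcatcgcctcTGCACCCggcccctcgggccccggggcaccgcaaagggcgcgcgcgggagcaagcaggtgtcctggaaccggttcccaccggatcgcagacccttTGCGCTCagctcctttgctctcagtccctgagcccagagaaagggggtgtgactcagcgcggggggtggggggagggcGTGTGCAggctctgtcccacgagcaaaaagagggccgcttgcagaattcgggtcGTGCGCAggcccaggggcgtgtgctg
Counted from 1 at the RefSeq start, Mt1 held 3 cores, the first at -23 to -17 and the others after that start. Mt2 held 4 cores, the farthest at -223 to -217 and the last after its RefSeq start. The start used in these cells was not measured, so these positions describe the annotation only. Among 32851 RefSeq windows of 300 bases (250 before to 50 after a start), 25.7% held at least 1 core, 1.97% at least 3 and 0.517% at least 4. Windows were found for 30 of the 37 genes, and 14 of the 30 held a core, in 15 of their 41 windows (36.6%). Slc30a1, another textbook Mtf1 target, had 2 cores. The antioxidant response element core TGACNNNGC, searched on both strands, was in 12.4% of all windows and in 7 of the 41 windows of these genes (17.1%), those of Mt2 and Slc30a1 among them. A match describes the letters only and is no evidence of binding.

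Slc30a transporters move zinc out of the cytosol. Of 8 tested, 6 were higher, none lower and 2 not called in CiLC against MEF, where 26.1% of all genes were higher and 25.5% lower. In LC against MEF 5 were higher, 1 lower and 2 not called (35.7% and 35% of all genes), and in CiLC against LC 3 were higher, 3 lower and 2 not called (35% and 35.6%), a share near that of all genes. The median log2 fold changes were 0.33, 0.29 and 0.03 in the order of these comparisons, beside all-gene medians of 0.01, -0.01 and 0.00. Most of the members moved little, and Slc30a2, Slc30a3 and Slc30a4 moved most.

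Slc30a2 (230810), which loads zinc into vesicles of secretory cells such as the mammary gland, was found in LC. It had 0 and 1 reads in CiLC, 664 and 603 reads in LC and 0 in both MEF libraries. In CPM, LC had 38.5 and 35.5. Against a floor of 3 reads over the MEF group, LC was at least 472-fold higher. The ratio of LC to CiLC was 1457, with an exact 95% binomial interval from 261 to 57599 that covers counting error only. Without the second CiLC library, which held the single read, CiLC was at 0 too. These are descriptions, since the gene passed the filter through LC alone, and CiLC against MEF was not called (edgeR adjusted p = 0.335).

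Slc30a4 (22785), a vesicular exporter whose loss makes mouse milk zinc-poor, had 80.8 and 80 CPM in CiLC, 144 and 151 CPM in LC and 50.2 and 44.7 CPM in MEF. CiLC lay between the other groups, and no groups overlapped. It rose 1.69-fold in CiLC against MEF (log2 fold change 0.76 ± 0.06 SE, edgeR adjusted p = 2.11e-10) and 3.11-fold in LC against MEF (1.64 ± 0.058 SE, edgeR adjusted p = 1.74e-17). It was 1.84-fold lower in CiLC against LC (-0.88 ± 0.054 SE, edgeR adjusted p = 8.67e-13).

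Slc30a3 (22784), known for filling synaptic vesicles with zinc, had few reads: 21 and 32 in CiLC, 5 and 2 in LC, and 6 and 2 in MEF. CiLC was above both other groups, which overlapped. The log2 fold change was 2.65 ± 0.62 SE in CiLC against MEF and 2.68 ± 0.65 SE in CiLC against LC, given as descriptions because the gene passed the filter through CiLC alone. With single libraries left out, it ranged from 2.074 to 3.607 in CiLC against MEF, highest without MEF replicate 1. In CiLC against LC the range was 2.189 to 3.445, highest without LC replicate 1. LC against MEF was not called (-0.03 ± 0.82 SE, edgeR adjusted p = 0.975), and its direction changed with the library left out.

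Slc30a5, Slc30a6 and Slc30a7, which bring zinc into the early secretory pathway, rose 1.22-fold, 1.23-fold and 1.26-fold in CiLC against MEF, of which the Slc30a6 call was lost in DESeq2 (adjusted p = 0.105). They averaged 79.4, 20.4 and 91.9 CPM in CiLC, 53.7, 19.4 and 93.2 CPM in LC, and 65, 16.6 and 72.7 CPM in MEF. Slc30a5 fell in LC, 1.21-fold against MEF, and was 1.48-fold higher in CiLC than in LC. Slc30a6 and Slc30a7 rose 1.17-fold and 1.28-fold in LC against MEF and were not called between CiLC and LC. The Slc30a6 call in LC against MEF was lost in 8 of the other settings, among them each of the 4 that left out an LC or MEF library. Slc30a1, the plasma membrane exporter, averaged 16.8 CPM in CiLC, 13.6 CPM in LC and 13.4 CPM in MEF. It was called higher in CiLC at 1.26-fold against MEF and 1.24-fold against LC, and both calls were lost with DESeq2 (adjusted p = 0.14 and 0.142) and without CiLC replicate 1 (adjusted p = 0.165 and 0.166). The call against MEF was also lost without MEF replicate 2 (adjusted p = 0.212), and the call against LC without either LC library (adjusted p = 0.0702 and 0.0929). Slc30a9, a mitochondrial zinc exporter, averaged 65.7 CPM in CiLC, 88.4 CPM in LC and 60.7 CPM in MEF. It rose 1.45-fold in LC against MEF, was 1.35-fold lower in CiLC than in LC, and was not called in CiLC against MEF. Slc30a8, known from insulin granules, and Slc30a10, known mainly as a manganese exporter, had at most 3.48 estimated reads in any library.

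Slc39a transporters bring zinc into the cytosol. Of 12 tested, 5 were higher, 4 lower and 3 not called in CiLC against MEF, with a median log2 fold change of 0.15, where 26.1% of all genes were higher and 25.5% lower. Against MEF in LC, 7 were higher, 3 lower and 2 not called (median 0.22, beside 35.7% and 35% of all genes). In CiLC against LC 3 were higher, 5 lower and 4 not called (median 0.06), shares of 25% and 41.7% that lie near the 35% and 35.6% of all genes. Of these, Slc39a4, Slc39a8, Slc39a10 and Slc39a12 were called at 2-fold or more in at least 1 comparison.

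Slc39a10 (227059), a plasma membrane importer that pairs with Slc39a6, had 56.3 and 54.7 CPM in CiLC, 187 and 193 CPM in LC and 61 and 61.8 CPM in MEF. LC stood alone, while CiLC and MEF were close without overlapping. It rose 3.09-fold in LC against MEF (log2 fold change 1.63 ± 0.05 SE, edgeR adjusted p = 1.17e-18) and was 3.42-fold lower in CiLC against LC (-1.78 ± 0.051 SE, edgeR adjusted p = 3.24e-19). In CiLC against MEF the log2 fold change was -0.15 ± 0.055 SE (edgeR adjusted p = 0.0298), a call lost when any 1 CiLC or MEF library was left out (adjusted p from 0.0588 to 0.174). Slc39a6 averaged 72.5 CPM in CiLC, 128 CPM in LC and 93.2 CPM in MEF. It fell 1.29-fold in CiLC against MEF, rose 1.38-fold in LC against MEF, and was 1.77-fold lower in CiLC than in LC.

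Slc39a8 (67547), which carries zinc, manganese and non-transferrin iron, had 21 and 21.8 CPM in CiLC, 9.2 and 8.54 CPM in LC and 19.3 CPM in both MEF libraries. LC was the low group here. It fell 2.17-fold in LC against MEF (log2 fold change -1.12 ± 0.10 SE, edgeR adjusted p = 5.7e-10) and was 2.41-fold higher in CiLC than in LC (1.27 ± 0.099 SE, edgeR adjusted p = 4.34e-11), with no call in CiLC against MEF (0.15 ± 0.082 SE, edgeR adjusted p = 0.129). Slc39a14, the related zinc and iron importer that liver induces in the acute phase, averaged 110 CPM in CiLC, 154 CPM in LC and 163 CPM in MEF. It fell 1.47-fold in CiLC against MEF and was 1.39-fold lower in CiLC than in LC. LC against MEF was not called (log2 fold change -0.08), but was called lower with upper-quartile scaling (adjusted p = 0.00234) and with quantile normalization in limma (adjusted p = 0.000145). The deposited values of both genes were not whole in any of the 6 libraries, so they may hold reads shared with other genes and are less certain. The same held for Slc30a7 and Slc39a9, and for Slc39a1 in 4 of the 6 libraries.

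Slc39a4 (72027), the main zinc importer of the intestine, was low throughout, with 3.05 and 2.89 CPM in CiLC, 2.67 and 2.41 CPM in LC and 1.15 and 1.2 CPM in MEF. MEF was the low group, and no groups overlapped. It rose 2.52-fold in CiLC against MEF (log2 fold change 1.33 ± 0.26 SE, edgeR adjusted p = 0.000122) and 2.16-fold in LC against MEF (1.11 ± 0.27 SE, edgeR adjusted p = 0.000809). Between CiLC and LC it was not called (0.23 ± 0.23 SE, edgeR adjusted p = 0.38). Slc39a12 (277468), known mainly from brain, had 12 and 10 reads in CiLC, 2 and 0 in LC, and 9 and 11 in MEF. The read ratio of CiLC to LC was 9.56 (exact 95% interval 2.35 to 83.9), and that of MEF to LC was 8.94 (2.17 to 78.9). The log2 fold change was 3.12 ± 1.14 SE in CiLC against LC and -3.02 ± 1.14 SE in LC against MEF. Both are descriptions, since the gene passed the filter only through groups where it was high. The log2 fold changes moved to 6.42 and -6.32 without LC replicate 1. Without LC replicate 2 they were 2.21 in CiLC against LC and -2.11 in LC against MEF.

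The other importers changed by less than 2-fold. Slc39a1 and Slc39a3, which import zinc at the cell surface, went separate ways in LC. Slc39a1 averaged 195 CPM in CiLC, 229 CPM in LC and 160 CPM in MEF, with folds of 1.22 in CiLC against MEF and 1.43 in LC against MEF. Between CiLC and LC it was 1.17-fold lower in CiLC, which quantile normalization did not call (adjusted p = 0.791). Slc39a3 averaged 37.4 CPM in CiLC, 22.1 CPM in LC and 33.8 CPM in MEF. It fell 1.53-fold in LC against MEF and was 1.69-fold higher in CiLC than in LC, with no call in CiLC against MEF unless CiLC replicate 2 was left out (adjusted p = 0.0363). Slc39a13, a vesicular zinc transporter needed in connective tissue, averaged 73.9 CPM in CiLC, 131 CPM in LC and 82.3 CPM in MEF. It rose 1.59-fold in LC against MEF and was 1.77-fold lower in CiLC than in LC. Its call as 1.11-fold lower in CiLC against MEF was lost in DESeq2 (adjusted p = 0.0946) and when CiLC replicate 1 (0.174) or MEF replicate 2 (0.205) was left out.

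Slc39a7, which releases zinc from the endoplasmic reticulum, averaged 247 CPM in CiLC, 244 CPM in LC and 212 CPM in MEF. It rose 1.17-fold in CiLC against MEF and 1.15-fold in LC against MEF, the second of which was lost with upper-quartile scaling (adjusted p = 0.0567) and quantile normalization (adjusted p = 0.912). CiLC against LC was not called, except as higher with quantile normalization (adjusted p = 0.000299). Slc39a9, known also as a membrane androgen receptor, averaged 80.4 CPM in CiLC, 75.3 CPM in LC and 64 CPM in MEF. It rose 1.26-fold in CiLC and 1.18-fold in LC against MEF. CiLC against LC was not called, except with upper-quartile scaling (adjusted p = 0.00386) and quantile normalization (adjusted p = 0.00243). Slc39a11 averaged 29.7 CPM in CiLC, 26.8 CPM in LC and 25.3 CPM in MEF. It was 1.17-fold higher in CiLC against MEF, which was not called by DESeq2 (adjusted p = 0.156) or once CiLC replicate 2 (0.15) or MEF replicate 2 (0.0926) was left out. LC against MEF was not called. CiLC against LC was called as higher only with upper-quartile scaling (adjusted p = 0.00623), with quantile normalization (0.0459) and without CiLC replicate 1 (0.0369). Slc39a2 had 4 to 10 reads per library, and Slc39a5 at most 2.

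**Figure D3:**
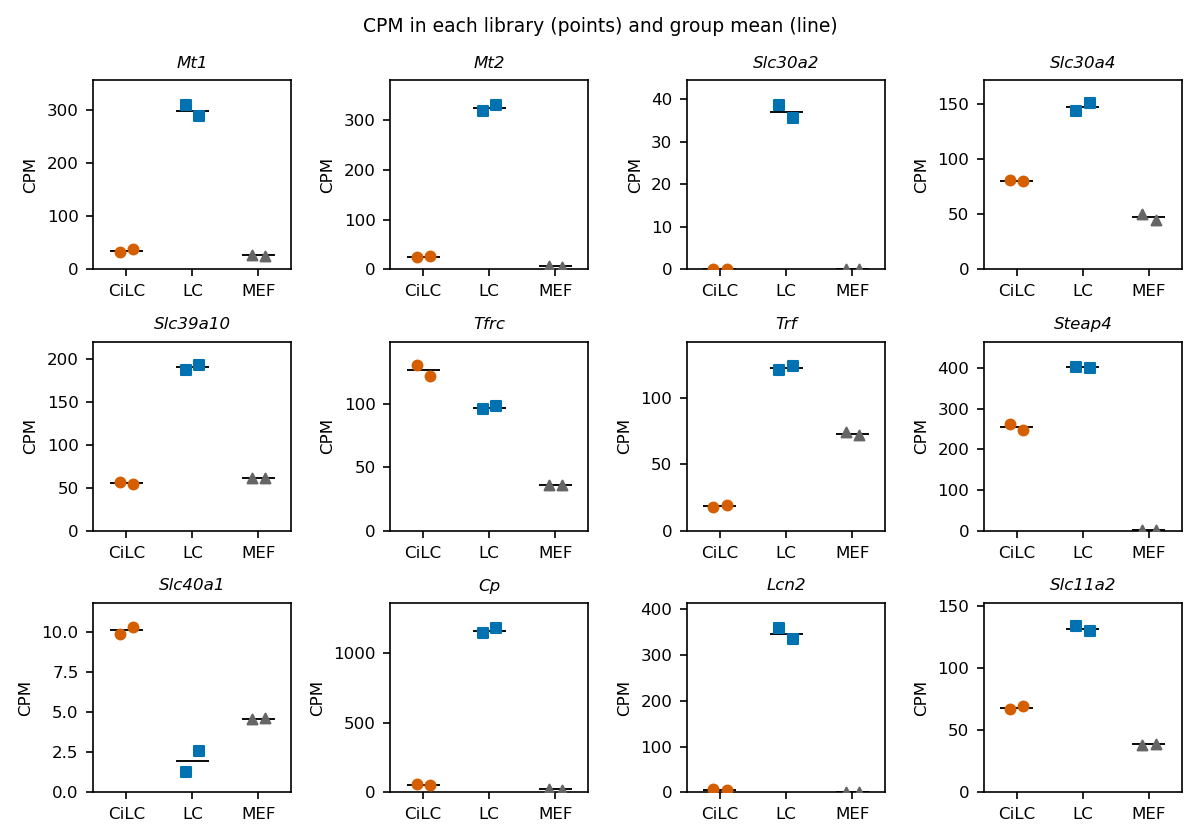
CPM of 12 zinc and iron handling genes in each library (points) and their group means (lines), on linear axes that start at 0 and differ between panels. LC was the highest group for Mt1, Mt2, Slc30a2, Slc30a4, Slc39a10, Trf, Steap4, Cp, Lcn2 and Slc11a2, and CiLC for Tfrc and Slc40a1.

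Among the 6 iron uptake genes, 5 were higher and 1 lower in CiLC against MEF, the same counts held in LC against MEF, and 2 were higher and 4 lower in CiLC against LC. The shares over the whole table were 26.1% higher and 25.5% lower for CiLC against MEF, 35.7% and 35% in LC against MEF, and 35% and 35.6% in CiLC against LC. The gene that fell differed: Trf in CiLC and Steap3 in LC. The median log2 fold changes were 1.21, 1.59 and -0.64, beside 0.01, -0.01 and 0.00 for all genes.

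Tfrc (22042), the receptor that takes up transferrin-bound iron, had 131 and 122 CPM in CiLC, 95.8 and 98.2 CPM in LC and 36.4 CPM in both MEF libraries. CiLC was the highest group and MEF the lowest, without overlap. It rose 3.48-fold in CiLC against MEF (log2 fold change 1.80 ± 0.058 SE, edgeR adjusted p = 9.69e-18) and 2.67-fold in LC against MEF (1.41 ± 0.06 SE, edgeR adjusted p = 4.57e-16). CiLC was 1.31-fold above LC (0.38 ± 0.051 SE, edgeR adjusted p = 4.81e-07).

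Trf (22041), transferrin itself, the iron carrier of plasma and tubule fluid, had 18.1 and 19.6 CPM in CiLC, 121 and 124 CPM in LC and 74 and 71.7 CPM in MEF. CiLC was the lowest group, so CiLC and LC lay on opposite sides of MEF. It fell 3.87-fold in CiLC against MEF (log2 fold change -1.95 ± 0.068 SE, edgeR adjusted p = 2.42e-17) and was 6.49-fold lower in CiLC than in LC (-2.70 ± 0.066 SE, edgeR adjusted p = 5.85e-21). It rose in LC against MEF, 1.68-fold (0.75 ± 0.051 SE, edgeR adjusted p = 5.85e-12). Sertoli markers, whose sums are given above, were higher in LC against MEF for 8 of 8 tested, beside 35.7% of all genes. Of these, Amh, Dhh and Gata1 averaged at most 0.305 CPM outside LC and passed the filter through LC alone, so these calls were fixed in advance. In CiLC against MEF, 5 of 8 were higher and none lower, beside 26.1% and 25.5% of all genes, while Trf fell. The part of Sertoli cells in the Trf level of LC was not tested.

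The Steap enzymes reduce ferric iron and cupric copper. Steap4 (117167), known from fat and from inflammation, had 263 and 247 CPM in CiLC, 402 and 399 CPM in LC and 1.99 and 1.98 CPM in MEF. Both CiLC and LC were far above MEF, where each library held 38 reads. It rose 128-fold in CiLC against MEF (log2 fold change 7.0 ± 0.16 SE, edgeR adjusted p = 1.83e-24) and 201-fold in LC against MEF (7.65 ± 0.16 SE, edgeR adjusted p = 1.44e-26). CiLC was 1.57-fold below LC (-0.65 ± 0.045 SE, edgeR adjusted p = 9.76e-12). Of the genes described here, Steap4 had the largest called log2 fold change in CiLC against MEF. Steap3 (68428), the endosomal reductase of the transferrin cycle, had 204 and 205 CPM in CiLC, 96 and 97.8 CPM in LC and 141 and 142 CPM in MEF. CiLC was the highest and LC the lowest group. It rose 1.44-fold in CiLC against MEF (0.53 ± 0.045 SE, edgeR adjusted p = 8.98e-10), fell 1.46-fold in LC against MEF (-0.55 ± 0.049 SE, edgeR adjusted p = 6.22e-10) and was 2.11-fold higher in CiLC than in LC (1.08 ± 0.047 SE, edgeR adjusted p = 1.54e-15).

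Slc11a2 (18174), the divalent metal transporter that carries iron out of endosomes, had 66.9 and 69.8 CPM in CiLC, 134 and 130 CPM in LC and 38.2 and 39.4 CPM in MEF. It rose 1.76-fold in CiLC (log2 fold change 0.82 ± 0.058 SE, edgeR adjusted p = 2.87e-11) and 3.4-fold in LC against MEF (1.77 ± 0.056 SE, edgeR adjusted p = 1.56e-18), with CiLC 1.93-fold below LC (-0.95 ± 0.051 SE, edgeR adjusted p = 6.4e-14). Slc11a1 (18173), its relative in phagosomes of macrophages, had 38.9 and 39.4 CPM in CiLC, 59.4 and 61.4 CPM in LC and 12.9 and 13 CPM in MEF. For both genes CiLC lay between LC and MEF. Slc11a1 rose 3.03-fold in CiLC (1.60 ± 0.076 SE, edgeR adjusted p = 9.46e-15) and 4.68-fold in LC against MEF (2.23 ± 0.075 SE, edgeR adjusted p = 1.9e-18), with CiLC 1.54-fold below LC (-0.62 ± 0.057 SE, edgeR adjusted p = 1.34e-09). Of the macrophage markers, 3 of 18 were higher and 13 lower in LC against MEF, 4 higher and 9 lower in CiLC against MEF, and 16 higher and 2 lower in CiLC against LC. Of all genes, 35.7% and 35%, 26.1% and 25.5%, and 35% and 35.6% were higher and lower, in the same order. The part of macrophages in the Slc11a1 level was not tested. Slc11a1 and Slc11a2 also had values that were not whole in any of the 6 libraries.

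Ferritin stores iron in shells of heavy chains (Fth1), which oxidise iron, and light chains (Ftl1), which help it mineralise. Fth1 (14319) had 3093 and 3238 CPM in CiLC, 8140 and 7964 CPM in LC and 2331 and 2426 CPM in MEF. Ftl1 (14325) had 2946 and 3177 CPM in CiLC, 1607 and 1538 CPM in LC and 2002 and 1866 CPM in MEF, from values that were not whole in any of the 6 libraries. LC was the highest group for the heavy chain and the lowest for the light chain. Fth1 rose 1.33-fold in CiLC (log2 fold change 0.41 ± 0.047 SE, edgeR adjusted p = 1.13e-07) and 3.39-fold in LC against MEF (1.76 ± 0.047 SE, edgeR adjusted p = 1.58e-19), and was 2.54-fold lower in CiLC than in LC (-1.35 ± 0.047 SE, edgeR adjusted p = 2.49e-17). Ftl1 rose 1.58-fold in CiLC against MEF (0.66 ± 0.05 SE, edgeR adjusted p = 1.25e-10), fell 1.23-fold in LC against MEF (-0.30 ± 0.051 SE, edgeR adjusted p = 1.6e-05) and was 1.95-fold higher in CiLC than in LC (0.96 ± 0.051 SE, edgeR adjusted p = 5.71e-14). The fall of Ftl1 in LC was no longer called once the coefficient of variation was set to 0.1 (adjusted p = 0.0692). The ratio of Fth1 reads to Ftl1 reads within a library was 1.05 and 1.02 in CiLC, 5.06 and 5.18 in LC, and 1.16 and 1.3 in MEF. CiLC therefore stayed near MEF in chain balance while both chains rose. The 2 genes held 0.643% and 0.685% of the reads in CiLC, 0.899% and 0.87% in LC, and 0.443% and 0.435% in MEF. That was most of the share of all 37 genes, which was 0.871% and 0.912% in CiLC, 1.33% and 1.3% in LC, and 0.603% and 0.592% in MEF.

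**Figure D4:**
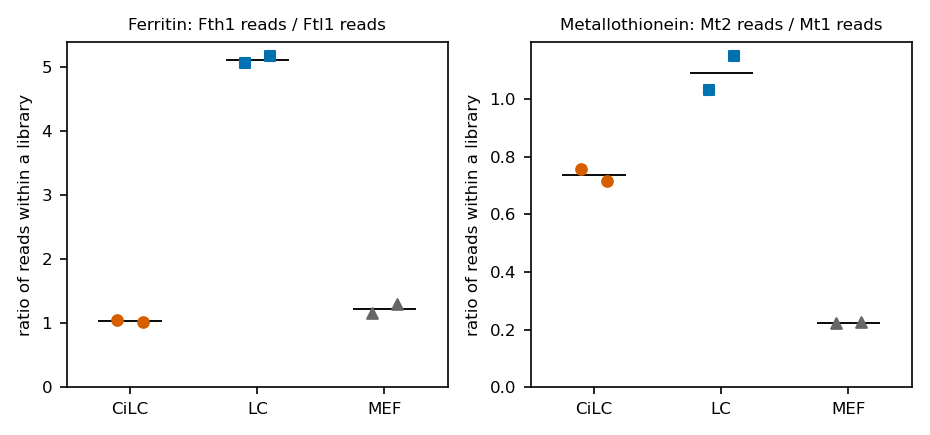
Ratio of Fth1 to Ftl1 reads (left) and of Mt2 to Mt1 reads (right) within each library (points) with group means (lines), on linear axes from 0 and not corrected for gene length. The ferritin ratio was 5.06 and 5.18 in LC and at most 1.3 elsewhere, while the metallothionein ratio was lowest in MEF.

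Slc40a1 (53945), ferroportin, the known exporter of iron from cells, had 9.92 and 10.3 CPM in CiLC, 1.28 and 2.59 CPM in LC and 4.56 and 4.63 CPM in MEF. CiLC was the highest and LC the lowest group, and the LC libraries, with 22 and 44 reads, differed from each other. It rose 2.2-fold in CiLC against MEF (log2 fold change 1.14 ± 0.16 SE, edgeR adjusted p = 1.72e-06), fell 2.38-fold in LC against MEF (-1.25 ± 0.23 SE, edgeR adjusted p = 3.1e-05), and was 5.23-fold higher in CiLC than in LC (2.39 ± 0.22 SE, edgeR adjusted p = 1.29e-10). Without LC replicate 2 the last log2 fold changes became -1.84 and 2.98. Over all single libraries left out, they ranged from -1.842 to -0.827 in LC against MEF and from 1.963 to 2.979 in CiLC against LC. The fall in LC against MEF therefore did not always reach 2-fold. Macrophages carry much ferroportin, and of their 18 markers 4 were higher and 9 lower in CiLC against MEF, 3 higher and 13 lower in LC against MEF, and 16 higher and 2 lower in CiLC against LC. Of all genes, 26.1% and 25.5%, 35.7% and 35%, and 35% and 35.6% were higher and lower, in the same order. The part of macrophages in the Slc40a1 level was not tested.

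Cp (12870), ceruloplasmin, the copper oxidase that loads exported iron onto transferrin, had 56.9 and 54.1 CPM in CiLC, 1142 and 1174 CPM in LC and 24.6 and 20.4 CPM in MEF. LC was far above both other groups, and no groups overlapped. It rose 2.47-fold in CiLC (log2 fold change 1.30 ± 0.078 SE, edgeR adjusted p = 1.06e-12) and 51.4-fold in LC against MEF (5.68 ± 0.071 SE, edgeR adjusted p = 3.83e-26), and was 20.9-fold lower in CiLC than in LC (-4.38 ± 0.058 SE, edgeR adjusted p = 6.82e-25). Its values were not whole in any of the 6 libraries. Cp is known from Sertoli cells as well as liver. Most Sertoli and Leydig markers moved in the same direction as Cp. In LC against MEF 8 of 8 tested Sertoli markers and 5 of 5 Leydig markers were higher, beside 35.7% of all genes. In CiLC against LC 7 of 8 and 5 of 5 were lower, beside 35.6% of all genes. Amh, Dhh and Gata1 passed the filter through LC alone, so their calls in these 2 comparisons were fixed in advance. The part of either cell type in the Cp level was not tested.

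Lcn2 (16819), lipocalin 2, which binds bacterial siderophores and so withholds iron, had 127 and 119 reads in CiLC, 6168 and 5694 reads in LC, and 3 and 2 reads in MEF. In CPM this was 6.46 and 6.03 in CiLC, 358 and 335 in LC, and 0.157 and 0.104 in MEF. The groups were far apart, and CiLC was nearer MEF than LC on the CPM scale. The log2 fold change was 5.51 ± 0.63 SE in CiLC against MEF (45.6-fold) and 11.30 ± 0.62 SE in LC against MEF (2523-fold). Both rest on the 5 MEF reads and are descriptions, since the gene passed the filter through CiLC and LC. CiLC was 55.4-fold below LC (-5.79 ± 0.098 SE, edgeR adjusted p = 1.29e-25).

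**Figure D5:**
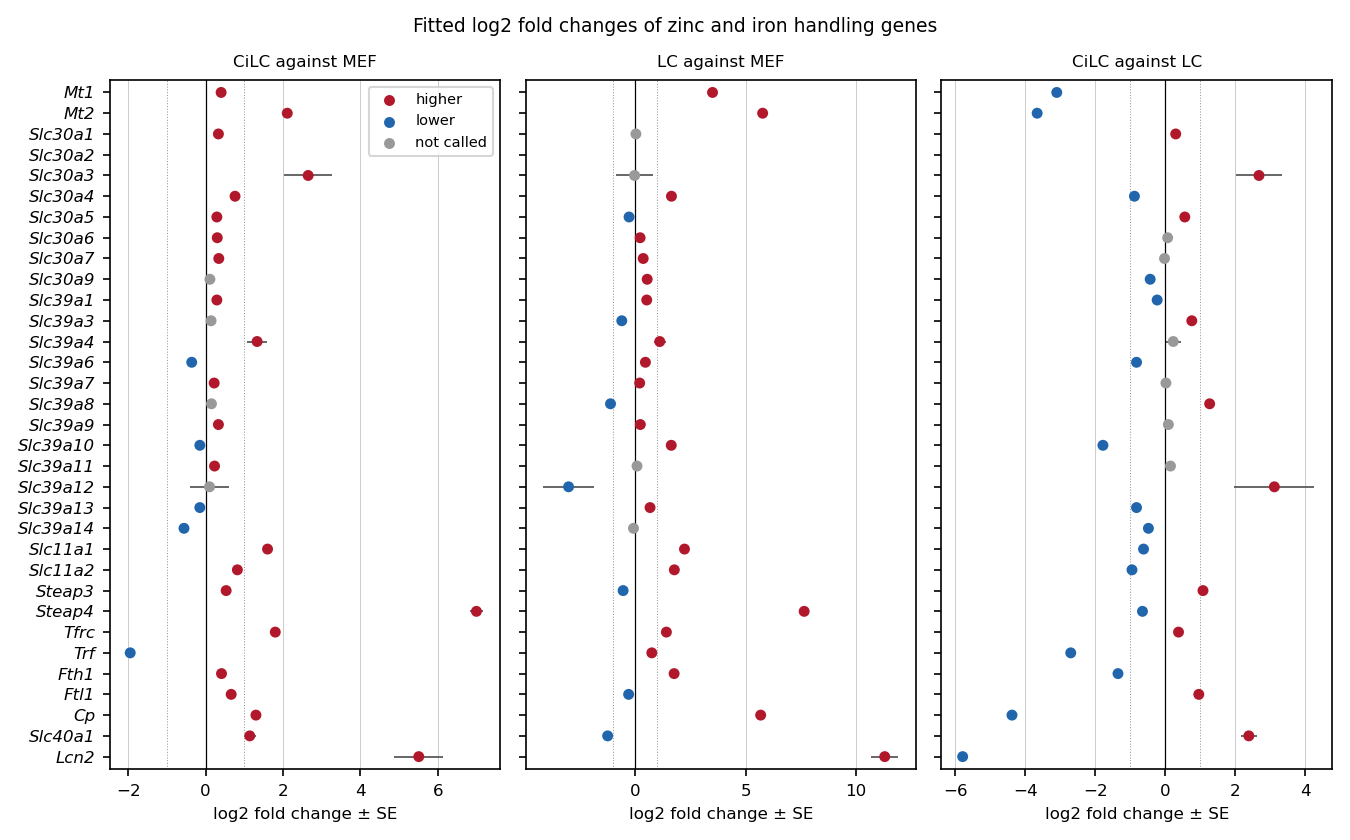
Fitted log2 fold change ± SE (edgeR) of the tested genes in the 3 comparisons, ordered by role, with called genes in red (higher) and blue (lower), dotted lines at 2-fold, and a different axis range in each panel. Slc30a2 has no point because it was at or near 0 in CiLC and MEF, and Trf and Steap4 mark the ends of the called values in CiLC against MEF.

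Among the iron genes, Fth1, Ftl1, Slc40a1 and Tfrc held matches to iron-responsive elements. These are RNA hairpins through which the proteins Aco1 and Ireb2 act when iron is scarce. Elements in the 5′ UTR let them block translation, and those in the 3′ UTR of Tfrc let them protect the transcript. A search of GENCODE vM21 transcripts on GRCm38 took an unpaired C, 5 bases, the loop CAGTGN whose last base was not G, and 5 bases pairing with the first 5 (G-U pairs allowed). Elements with an unpaired base within those pairs would be missed, so a gene without a match may still carry one. The search found a match in the transcripts, coding parts included, of 222 of 21901 protein-coding genes (1.01%) and of 4 of the 37 genes. In those 4 genes every match lay in a UTR. The sites are shown because they tie together the receptor, the exporter and both ferritin chains. They are written as DNA, 5′ to 3′ in the direction of the transcript, with the loop in capitals.
Fth1 5′ UTR, chr19:9982733-9982759, plus strand: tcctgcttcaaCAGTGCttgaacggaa
Ftl1 5′ UTR, chr7:45459780-45459806, minus strand: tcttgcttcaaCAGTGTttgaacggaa
Slc40a1 5′ UTR, chr1:45925466-45925492, minus strand: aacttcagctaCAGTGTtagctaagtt
Tfrc 3′ UTR, chr16:32631220-32631246, plus strand: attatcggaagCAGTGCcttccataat
Tfrc 3′ UTR, chr16:32631599-32631625, plus strand: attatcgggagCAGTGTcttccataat
Tfrc 3′ UTR, chr16:32631664-32631690, plus strand: tatatcggagaCAGTGAtctccatatg
Tfrc 3′ UTR, chr16:32631711-32631737, plus strand: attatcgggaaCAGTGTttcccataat
The search was added after the values of these genes were known. All 4 genes were called higher in CiLC against MEF, beside 26.1% of all genes. In LC against MEF Tfrc and Fth1 were higher and Ftl1 and Slc40a1 lower, beside 35.7% and 35% of all genes. With a coefficient of variation of 0.4 assumed, all 4 calls in CiLC against MEF ended. Of those in LC against MEF, only the call of Fth1 was left in that setting. The values of these genes are transcript levels, and translation was not measured. Of the proteins that bind the elements, Ireb2 averaged 101 ± 6.61 CPM in CiLC, 89.6 ± 0.213 CPM in LC and 82.3 ± 6.47 CPM in MEF (SD, n = 2 each). Aco1 averaged 52.2 ± 1.88 CPM in CiLC, 62.9 ± 2.25 CPM in LC and 49.4 ± 0.0381 CPM in MEF. Ireb2 was higher in CiLC against MEF (edgeR adjusted p = 0.000146) and against LC (edgeR adjusted p = 0.00985), and Aco1 was higher in LC against MEF (edgeR adjusted p = 1.07e-05) and lower in CiLC against LC (edgeR adjusted p = 0.000217).

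Of 12 tested genes of iron sensing and systemic regulation, 4 were higher and 3 lower in CiLC against MEF (median log2 fold change -0.05), 8 higher and 2 lower in LC against MEF (0.33), and 2 higher and 8 lower in CiLC against LC (-0.60). The shares of all genes called higher and lower in these comparisons were 26.1% and 25.5%, 35.7% and 35%, and 35% and 35.6%, so the counts in CiLC against MEF lie near them. Tfr2, the iron-sensing second transferrin receptor, averaged 0.228 ± 0.107 CPM in CiLC, 5.64 ± 0.226 CPM in LC and 1.33 ± 0.0303 CPM in MEF (SD, n = 2 each). It rose 4.22-fold in LC against MEF (edgeR adjusted p = 3.77e-08). Its fitted fold in CiLC against MEF, 5.69-fold lower, is a description, since it was low in CiLC. Bmp6, a signal for hepcidin in liver, rose 3.15-fold in LC against MEF and was 3.26-fold lower in CiLC than in LC. Pcbp3, of a family that includes iron chaperones, rose 2.63-fold in LC against MEF, as did Fbxl5, which marks Ireb2 for degradation when iron is plentiful, at 2.41-fold. Hfe, a partner of the transferrin receptors, was 2.08-fold higher in CiLC than in LC.

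Of 11 tested genes in a further list of iron uptake, oxidases and scavengers, 7 were higher and 1 lower in CiLC against MEF (median log2 fold change 0.57), 8 higher and 2 lower in LC against MEF (1.83), and 3 higher and 7 lower in CiLC against LC (-1.22), read against the same shares of all genes. The reductases Steap1 and Steap2 rose 7.39-fold and 2.64-fold in CiLC and 17.8-fold and 6.15-fold in LC against MEF. Haptoglobin (Hp), which captures free haemoglobin, averaged 4.55 ± 0.263 CPM in CiLC, 521 ± 9.31 CPM in LC and 1.72 ± 0.0652 CPM in MEF (SD, n = 2 each). It rose 2.63-fold in CiLC and 301-fold in LC against MEF, and was 114-fold lower in CiLC than in LC. Haemopexin (Hpx), which captures haem, rose 17.1-fold in LC against MEF and was 18.9-fold lower in CiLC than in LC. Scara5, a ferritin receptor, went the other way in LC only. It averaged 110 ± 0.451 CPM in CiLC, 8.97 ± 0.302 CPM in LC and 50.7 ± 3.25 CPM in MEF. It rose 2.17-fold in CiLC and fell 5.65-fold in LC against MEF, and was 12.3-fold higher in CiLC than in LC. Cd163, the haptoglobin-haemoglobin receptor and a macrophage marker, was 3.39-fold lower in CiLC than in LC, at 0.68 CPM in CiLC and 2.33 CPM in LC.

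In the haem and iron-sulphur list, 8 of 26 were higher and 1 lower in CiLC against MEF (median log2 fold change 0.09), 16 higher and 6 lower in LC against MEF (0.25), and 7 higher and 14 lower in CiLC against LC (-0.23). The shares over the whole table were 26.1% higher and 25.5% lower for CiLC against MEF, 35.7% and 35% in LC against MEF, and 35% and 35.6% in CiLC against LC. Alas1, the first and rate-limiting enzyme of haem synthesis, averaged 56.6 ± 1.5 CPM in CiLC, 269 ± 1.92 CPM in LC and 47.8 ± 2.01 CPM in MEF (SD, n = 2 each). It rose 5.63-fold in LC against MEF (edgeR adjusted p = 8.11e-22) and was 4.75-fold lower in CiLC than in LC (edgeR adjusted p = 4.43e-21). Flvcr2, described as a haem importer, rose 2.86-fold in LC against MEF. In the zinc and metal sensing list, 4 of 9 tested were higher and 2 lower in CiLC against MEF (median 0.11), 4 higher and 3 lower in LC against MEF (0.14), and 3 higher and 5 lower in CiLC against LC (-0.29). Mt3, the third metallothionein, averaged 0.178 ± 0.108 CPM in CiLC, 6.69 ± 0.0525 CPM in LC and 0.391 ± 0.109 CPM in MEF. Its fitted folds, 16.8-fold higher in LC against MEF and 36.3-fold lower in CiLC than in LC, are descriptions, since it was low outside LC. In CiLC against MEF its log2 fold change was -1.11 (edgeR adjusted p = 0.133), where Mt1 and Mt2 were called higher. Slc41a1, a magnesium transporter, rose 2.32-fold in LC against MEF.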

How the data were processed

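The authors deposited estimated counts, 1 value for each gene and library, headed as read counts and with no scaling for depth. HISAT and the build mm9 are named in the submitters' processing notes. How reads were assigned to genes, with which annotation and strand setting, is not given in the sources used here. Of the values of a library, 32.4% to 32.8% were not whole, which may mean that reads were split between genes, so such genes, overlapping genes and antisense genes are less certain. Symbols were found by NCBI gene number for 18179 of 18305 genes in a RefSeq table of GRCm38.p6. That build is not the one of the counts. It and GENCODE vM21 were used for names, promoter windows and transcript sequences only.

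After rounding, edgeR 4.0.16 (R 4.3.3) was used for the tests: filterByExpr (minimum count 10, minimum total 15; 14581 genes kept, 3724 removed), trimmed mean of M values, and a single quasi-likelihood fit of all 6 libraries with group as the only term. Tests were two-sided, p-values had Benjamini-Hochberg adjustment over all genes tested, and genes were called at 0.05. The prior count behind log2 fold changes was 0.125, and the procedure was tested on simulated data. Groups came from sample titles. The libraries of a group differed by more than sampling noise (chi-square per degree of freedom 1.80 in CiLC, 2.94 in LC and 2.77 in MEF), so each was kept. Intervals and the floor of 3 reads cover counting error only.

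Every gene of the set is named or counted, with full statistics for those called at 2-fold or more in a comparison and for Ftl1. Other listed genes were named, up to 4 a list and comparison, by the largest called change of at least 2-fold with a mean of at least 1 CPM. Mtf1, Aco1 and Ireb2 fall outside that rule and were named after their values were seen. The members and lists were chosen with earlier results of these data known. Alternatives were other scalings, DESeq2 1.42.0, limma 3.58.1 after quantile normalization, no filter, no rounding, 4 libraries only, single libraries left out, a replicate block, assumed coefficients of variation of 0.1 and 0.4, and a 2-fold minimum.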

Additional observations from a re-analysis of the deposited data

How the results depend on the processing

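The counts of called genes held within 1.5 times under the other scalings, no filter, no rounding, 4 libraries only and quantile normalization, and with the replicate block they were 23 higher and 5 lower (CiLC against MEF), 22 and 7 (LC against MEF) and 10 and 17 (CiLC against LC), as without it. The replicate numbers are not shown to pair the libraries, since deviations of same-numbered libraries correlated at 0.097 (CiLC and MEF), 0.014 (LC and MEF) and -0.079 (CiLC and LC), and the block changed no call. With an assumed coefficient of variation of 0.4 the counts were 4 higher and 1 lower in CiLC against MEF, 11 and 1 in LC against MEF, and 3 and 7 in CiLC against LC. With 0.1 they were 15 higher and 2 lower in CiLC against MEF. With a 2-fold minimum they were 9 and 1, 13 and 3, and 5 and 8, in the same order of comparisons. DESeq2 called 3 lower in CiLC against MEF. Leaving out 1 library, with the lone library of its group taken to vary like the others, gave 3 to 5 lower in CiLC against MEF, with 3 without CiLC replicate 1 and 3 without MEF replicate 2.

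Of 1581 recomputed fold changes, 13 turned direction, and none of these was called. With upper-quartile scaling, which moved the median of all genes in LC against MEF to -0.108, Slc30a1 became -0.072 and Slc39a11 -0.022 in LC against MEF, and Slc30a7 0.065 in CiLC against LC. With quantile normalization Slc30a7 became 0.107 in CiLC against LC and Slc39a12 -0.001 in CiLC against MEF. With single libraries left out, the range was -0.045 to 0.241 for Slc39a12 in CiLC against MEF, -0.121 to 0.182 for Slc30a1 and -0.795 to 0.921 for Slc30a3 in LC against MEF, and -0.030 to 0.002 for Slc30a7 and -0.009 to 0.049 for Slc39a7 in CiLC against LC. The causes were not tested. In the 250 bases before the start alone, 13 genes held a metal response element core in place of 14. Genes with fewer than 10 reads in a group, such as Lcn2, Slc30a2, Slc30a3 and Slc39a12, are limited by depth.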

Other observations

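Copper handling genes, which meet the iron genes at ceruloplasmin, were counted from a list chosen with earlier results of these data known. Of 13 tested, 7 were higher and none lower in CiLC against MEF (median log2 fold change 0.25), none of them by 2-fold. In LC against MEF 8 were higher and 2 lower (0.31), and in CiLC against LC 3 were higher and 6 lower (-0.20). The shares over the whole table were 26.1% higher and 25.5% lower for CiLC against MEF, 35.7% and 35% in LC against MEF, and 35% and 35.6% in CiLC against LC. Atp7b, the copper pump that loads ceruloplasmin in liver, averaged 0.391 ± 0.264 CPM in CiLC, 8.41 ± 0.32 CPM in LC and 0.216 ± 0.0687 CPM in MEF (SD, n = 2 each). Its fitted folds, 39-fold higher in LC against MEF and 21.7-fold lower in CiLC than in LC, are descriptions, since it was low outside LC, with no call in CiLC against MEF (edgeR adjusted p = 0.26). Sod3, the extracellular superoxide dismutase that uses copper and zinc, averaged 102 ± 5.07 CPM in CiLC, 435 ± 0.882 CPM in LC and 62.8 ± 1.79 CPM in MEF. It rose 6.92-fold in LC against MEF (edgeR adjusted p = 1.04e-22) and was 4.28-fold lower in CiLC than in LC (edgeR adjusted p = 9.54e-21). Cox17, which brings copper to cytochrome oxidase, rose 2.12-fold in LC against MEF (edgeR adjusted p = 7.43e-08).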
